A study of Rattus norvegicus with 4 samples.

Results

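The 5 miRNAs described here come from imprinted loci of the rat genome: rno-miR-483-5p from Igf2, rno-miR-675-3p from H19, and rno-miR-370-3p, rno-miR-494-3p and rno-miR-134-5p from the Dlk1-Dio3 region; the species prefix is left out hereafter. They are 5 of the 719 rat miRNAs on the array, picked by name with their signals already known, so their own values are a description and carry no test. Signals were read from RNA of exosomes isolated from serum, which are small membrane-bound vesicles shed by cells.

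At an imprinted locus the copy from 1 parent is expressed and the copy from the other parent is silenced. Igf2, which codes for a fetal growth factor, is expressed from the paternal copy, and its neighbour H19, a long noncoding RNA, from the maternal copy. miR-483 lies inside Igf2, and miR-675 is cut out of the H19 transcript. In the Dlk1-Dio3 region the coding genes are paternal, while the noncoding RNA Meg3 and a long series of miRNAs and small nucleolar RNAs after it are maternal. These loci are active in fetal liver and placenta and much less active in adult liver, and their re-expression has been described in liver tumours.

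The male rats, named baffolo in the series' text, formed 4 groups with 1 array each. The naive array (day 0) is from animals without an injection. The light array is from day 35, and the moderate and severe arrays are both from day 49, after hepatocellular carcinoma (HCC) was induced. The protocol in the labels has an unnamed HCC cell line injected, whereas the series' design text has HCC exosomes given as 1 dose. What sets light, moderate and severe disease apart is not given in the labels, nor is whether RNA was pooled. Only the moderate and severe arrays share a day. In every other comparison, those against naive included, day and disease cannot be told apart. The design text speaks of 4 experiments per time, but with 1 array per group there is no error between animals, and no p-value is given. A value after ± is the standard error over replicate spots of 1 array, which covers spot noise only. Rows of 4 values follow the order naive, light, moderate, severe.

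The mature sequences are shown because the probes read these 5 arms and not their precursors. They are RefSeq sequences (GRCr8), 5′ to 3′, with the seed, bases 2 to 8, which directs binding to target messenger RNAs, in capitals.
miR-483-5p: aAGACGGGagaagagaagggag
miR-675-3p: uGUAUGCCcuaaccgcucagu
miR-370-3p: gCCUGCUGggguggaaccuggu
miR-494-3p: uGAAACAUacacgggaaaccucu
miR-134-5p: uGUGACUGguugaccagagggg
The 5 seeds all differ, and none is shared with any other of the 693 rat mature miRNAs in the sequence table. miR-483-5p stands out among the 5 in composition: 95.5% of its bases are purines and 0 are U. Its GC content is 54.5%, against 52.4% for miR-675-3p, 68.2% for miR-370-3p, 43.5% for miR-494-3p and 59.1% for miR-134-5p. The longest run of bases that any member shares with another miRNA measured in the series is 7 or 8 bases, the 8-base runs being those of miR-494-3p with miR-466b-2-3p and miR-466c-3p and of miR-370-3p with miR-221-3p.

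Each precursor hairpin yields 2 arms, and the array had probes for both arms of all 5. In the hairpins below the arm of the member is in capitals, so that its place on the 5′ or 3′ side can be seen.
Mir483: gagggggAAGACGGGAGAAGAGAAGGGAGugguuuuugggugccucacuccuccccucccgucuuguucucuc
Mir675: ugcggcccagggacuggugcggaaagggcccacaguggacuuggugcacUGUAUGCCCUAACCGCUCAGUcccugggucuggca
Mir370: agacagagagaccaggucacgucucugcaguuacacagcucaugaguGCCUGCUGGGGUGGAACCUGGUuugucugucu
Mir494: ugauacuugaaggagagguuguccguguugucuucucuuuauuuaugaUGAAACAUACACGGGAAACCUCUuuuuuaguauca
Mir134: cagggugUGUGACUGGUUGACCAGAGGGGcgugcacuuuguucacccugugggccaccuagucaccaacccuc
In the gene table of the GRCr8 assembly, ordered by start, Igf2 is the only gene listed between Mir675 and Mir483. Along the Dlk1-Dio3 region the order is Dlk1, Meg3, Mir370, Mir494, Mir134 and Dio3, with 59 miRNA genes from Dlk1 to Dio3. Between Mir370 and Mir494 lie 84 small nucleolar RNA genes and 9 miRNA genes. Mir494 and Mir134 are separated by 19 listed genes, of which 18 are miRNA genes.

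The scanner software detected 122 to 176 miRNAs per array and 3 of the 5 members on every array; miR-675-3p and miR-134-5p were detected on the severe array alone. The arrays differed in brightness: summed over detected miRNAs, the signal was 0.643 (light), 1.58 (moderate) and 0.694 (severe) times that of the naive array. Signals were therefore divided by the 75th percentile of each array over the 111 miRNAs detected on all arrays, which was 666.04, 356, 954 and 415 intensity units. A miRNA counted as measured where it was detected and its signal, summed over its probes, reached the floor of 13.1 to 16.0 units, the signal of the dimmest probe for which a share of 0.5 or more of the spots stood well above background. The geometric mean of 2 labelling spike-ins on the severe array was 0.620 times that on the naive array, and 1.004 and 0.891 times for light and moderate. The 2 spike-ins differed, at 0.788 and 0.488 times naive on the severe array; scaling on these spike-ins is among the settings reported with the comparisons.

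miR-483-5p, the Igf2 arm, gave a background-subtracted signal of 85.3 ± 2.04 intensity units (naive), 53.5 ± 2.01 (light), 160 ± 2.46 (moderate) and 377.4 ± 4.53 (severe). Before scaling, the order was light, naive, moderate, severe. The number of its 20 spots well above background was 12, 8, 19 and 20 in turn. As a percentage of the 75th percentile its level was 12.8% (naive), 15.0% (light), 16.8% (moderate) and 90.9% (severe). Scaling thus brought the first 3 arrays close together and left the severe array apart. Its share of the summed signal of detected miRNAs, which needs no percentile, was 0.0613%, 0.0599%, 0.0727% and 0.391% in the same order.

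The 4 probes of miR-483-5p, which have 5 spots each, did not have equal brightness, but each was brightest on the severe array. The dimmest probe had means of 5.57, 1.19, 16.1 and 50.6 units, and the brightest 40.6, 28.5, 70.6 and 122. After scaling, the 2 probes above the floor on both arrays were 6.55-fold and 4.82-fold higher on the severe than on the naive array. All 4 probes were above the floor on the moderate and severe arrays, and there the severe array was 3.97-fold to 8.16-fold higher. The sum, which includes probes near background, is the value used here. miR-483-3p, the other arm, known for suppressing the cell death gene Bbc3, was detected on the moderate array alone, at 14.0 ± 1.26 units with 1 of 20 spots well above background. Its sums were 8.23 (naive), 7.56 (light) and 12.001 units (severe) elsewhere.

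**Figure D1:**
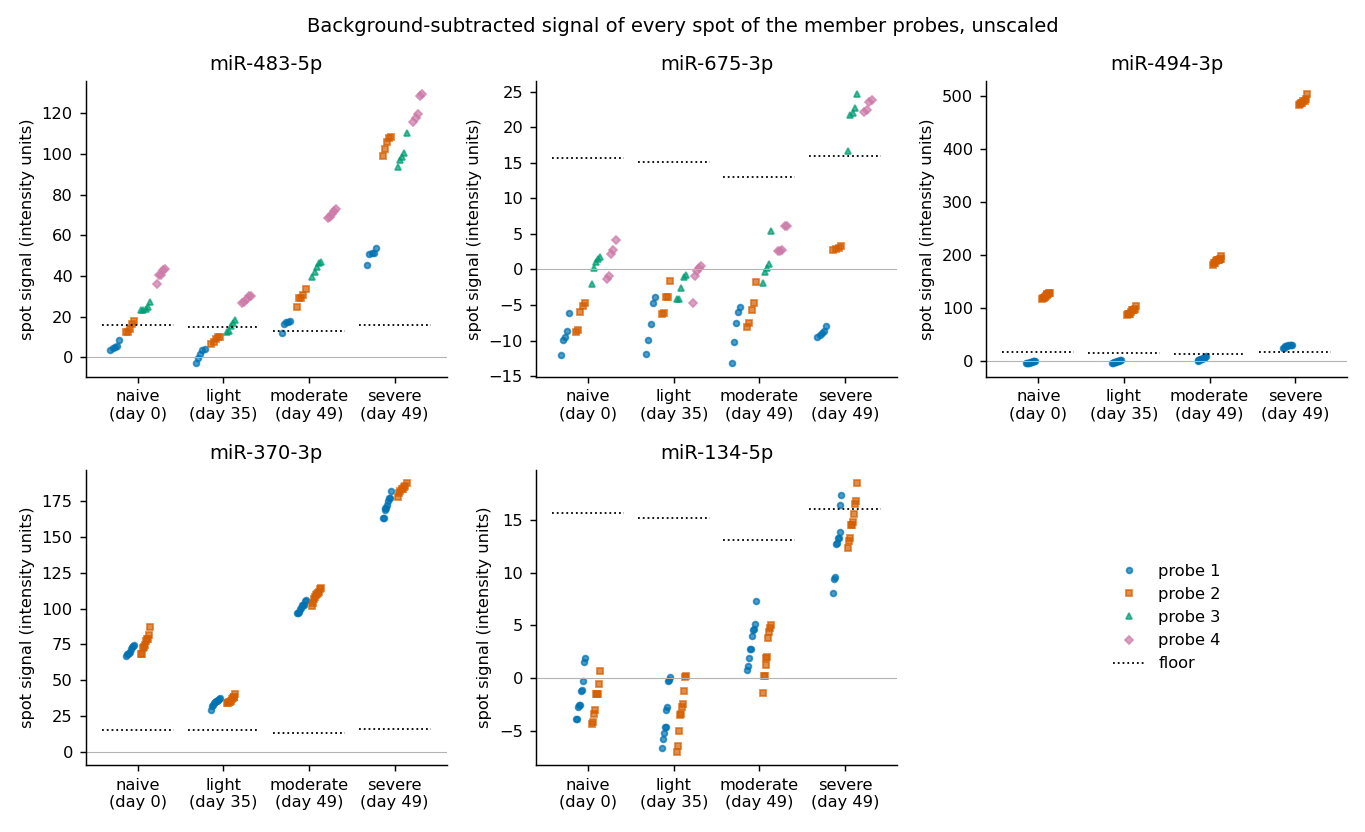
Spot signals of the 5 miRNAs, in background-subtracted intensity units before scaling, by array and day; each point is 1 spot, drawn in order of value within its probe, colours and shapes are probes, and dotted lines are the floor of each array. The severe array holds the highest spots in all 5 panels, while miR-675-3p and miR-134-5p lie below the floor on the other 3 arrays.

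miR-675-3p, the H19 arm, which in mouse placenta is known to limit growth by targeting Igf1r, gave sums of −14.1 (naive), −15.6 (light) and −9.14 units (moderate), with 0 of 20 spots well above background on each. On the severe array the sum was 38.7 ± 1.41 units, with 9 of 18 spots well above background. That signal came from 2 of its 4 probes, with means of 21.6 and 23.0 units, while the other 2 had means of −8.87 and 3.003. The lowest spot of the 2 bright probes was 16.7 units, against a maximum of 8.16 units over the 178 negative-control spots of the array. The level on the severe array was 9.32% of the 75th percentile. miR-675-5p, the other arm, was not detected on any array, and its sums ran from −40.7 to −35.1 units.

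miR-370-3p, the first of the Dlk1-Dio3 members in gene order, gave 147 ± 2.12 units (naive), 71.0 ± 1.04 (light), 210.04 ± 1.66 (moderate) and 355 ± 2.19 (severe). Every spot used was well above background, 18 to 20 on each array. Its 2 probes gave nearly the same means, 70.7 and 76.1 units on the naive array and 172 and 183 on the severe array. As a percentage of the 75th percentile the level was 22.0%, 19.9%, 22.0% and 85.5%. The naive and moderate levels differed by less than the spot noise after scaling, with a log2 difference of −0.0016 ± 0.02. The share of the summed signal was 0.106%, 0.0793%, 0.0954% and 0.367%.

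miR-494-3p, from the middle of the region, gave 120 ± 1.34 units (naive), 91.5 ± 1.84 (light), 193 ± 1.69 (moderate) and 517 ± 2.33 (severe). As a percentage of the 75th percentile this was 18.1%, 25.7%, 20.2% and 125%, so that the scaled order among the first 3 arrays, naive, moderate, light, differs from the unscaled one. The signal came almost wholly from 1 of its 2 probes, with means of 122.8, 93.2, 189 and 489 units. The other probe stayed between −2.39 and 3.70 units on the first 3 arrays and reached 27.7 units on the severe array. The share of the summed signal was 0.0865%, 0.102%, 0.0876% and 0.535%.

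miR-134-5p, a brain miRNA known for restraining dendritic spine growth through Limk1, gave sums of −3.64 (naive), −6.44 (light) and 5.70 units (moderate), with 0 spots well above background. On the severe array the sum was 27.6 ± 1.12 units, or 6.66% of the 75th percentile, with 5 of 20 spots well above background. Each of its 2 probes lay under the floor of 16.0 units there, with means of 12.7 and 15.0, and only their sum passed it. The single spots ran from 8.09 to 18.5 units, and the lowest lay within the range of the negative-control spots, whose maximum was 8.16 units. The other arms of the Dlk1-Dio3 members, miR-370-5p, miR-494-5p and miR-134-3p, were not detected on any array and had sums below 0 throughout.

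The light and moderate arrays were set against the naive array to ask how the members stood in less advanced disease. A fold is a ratio of scaled signals, and a difference of at least 2-fold is counted as higher or lower. In light against naive, 3 of the 5 members had a value. miR-675-3p and miR-134-5p were measured on neither array and could not be called. Of the 3, 0 were higher and 0 lower. Over all, 1.56% of the 128 miRNAs measured on at least 1 of the arrays were higher and 0.781% lower (1.71% higher among the 117 measured on both). The log2 differences were 0.23 ± 0.06 for miR-483-5p, 0.51 ± 0.03 for miR-494-3p and −0.15 ± 0.03 for miR-370-3p, beside a median of 0.27 over those 117. Over 14 settings, miR-370-3p was below 0 in 13, miR-483-5p in 7 and miR-494-3p in 2. Leaving out the scaling lowers all miRNAs of this comparison alike: the 3 differences were then −0.67 for miR-483-5p, −0.40 for miR-494-3p and −1.05 for miR-370-3p, the last being past 2-fold. With no scaling the median over all was −0.63, and the split of all miRNAs went from 2 higher and 1 lower to 0 higher and 34 lower.

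In moderate against naive, the same 3 of the 5 members had a value, and the others were again measured on neither array. Of the 3, 0 were higher and 0 lower. Over all, 5.42% of the 166 miRNAs measured on at least 1 array were higher and 1.20% lower (6.35% higher among the 126 measured on both). The log2 differences were 0.39 ± 0.04 for miR-483-5p, 0.16 ± 0.02 for miR-494-3p and −0.0016 ± 0.02 for miR-370-3p, beside a median of 0.22 over those 126. Under the other settings tried, they lay between −0.16 and 1.07, between −0.08 and 0.85, and between −0.16 and 0.68. miR-483-5p was below 0 in 1 of 14 settings, the normexp background correction, miR-494-3p in 4 and miR-370-3p in 11. With scaling on the spike-ins, miR-483-5p was 2.11-fold higher on the moderate than on the naive array, where 70 miRNAs of all were higher and 0 lower, against 9 and 2 as reported and 48 and 1 with no scaling; the medians over all were 0.91 with the spike-ins and 0.74 with no scaling.

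In severe against naive, all 5 members were higher, where 24.1% of the 137 miRNAs measured on at least 1 array were higher and 18.2% lower (22.0% higher among the 109 measured on both); since the members were picked with this contrast known, nothing is read from their count. miR-483-5p was 7.10-fold higher on the severe array (log2 2.83 ± 0.04), place 3 among the 109 miRNAs measured on both arrays. Its probes above the floor on both arrays were 6.55-fold and 4.82-fold higher, each less than their sum with the dimmer probes. miR-494-3p was 6.89-fold higher (log2 2.78 ± 0.02), place 4. miR-370-3p was 3.88-fold higher (log2 1.95 ± 0.02), place 14. The median log2 difference over the 109 miRNAs was −0.11. For miR-675-3p and miR-134-5p, measured on the severe array alone, the fold is a bound against the naive floor: at least 3.97-fold and at least 2.83-fold higher. That bound sets a sum over probes against the floor of a single probe, so it is not strict, and a miRNA measured on the severe array alone can come out higher or uncalled but not lower.

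The size of the severe difference varied with the processing, while the 3 members measured on both arrays were higher on the severe array in every setting run. The direction of miR-675-3p and miR-134-5p was fixed in advance, since a bound of this kind cannot come out lower. Before any scaling the severe signals were 4.43, 4.30 and 2.42 times the naive signals for miR-483-5p, miR-494-3p and miR-370-3p. Over 14 settings, the one reported included, the folds ran from 2.51 to 8.60 for miR-483-5p, from 3.56 to 7.85 for miR-494-3p and from 2.39 to 4.42 for miR-370-3p, all above 2-fold; the lowest came from the normexp background correction for all 3. The bound of miR-675-3p was 1.63-fold with the normexp background correction and 2.25-fold with its brightest probe alone. The bound of miR-134-5p was 1.71-fold with normexp and 1.77-fold with no scaling, and miR-134-5p was not measured with the brightest probe alone or with detection by spots well above background. Scaled on the spike-ins, the folds were 7.14, 6.93 and 3.90 for miR-483-5p, miR-494-3p and miR-370-3p. Over all miRNAs the split moved with the scaling, from 33 higher and 25 lower as reported to 23 higher and 53 lower with no scaling.

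**Figure D2:**
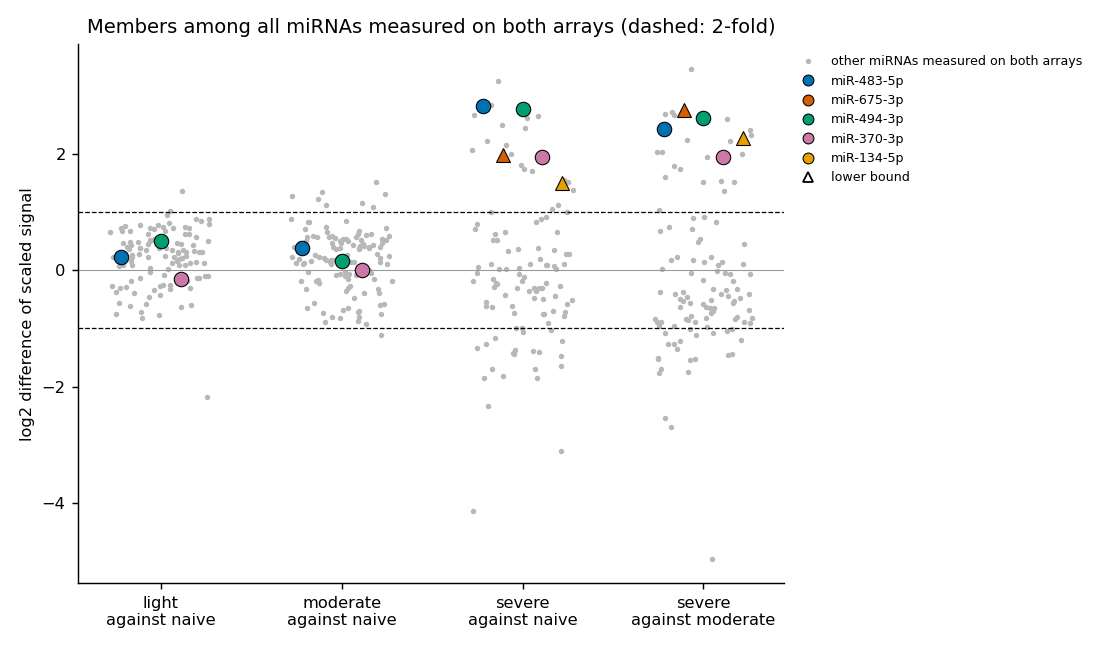
Log2 differences of scaled signal by comparison; grey points are the other miRNAs measured on both arrays of a comparison, coloured circles are members measured on both, and coloured triangles are lower bounds for members measured on the severe array alone. The 3 measured members lie between −0.15 and 0.51 in the first 2 comparisons and between 1.95 and 2.83 in the 2 that involve the severe array; the 3 comparisons against naive share the naive array.

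**Figure D3:**
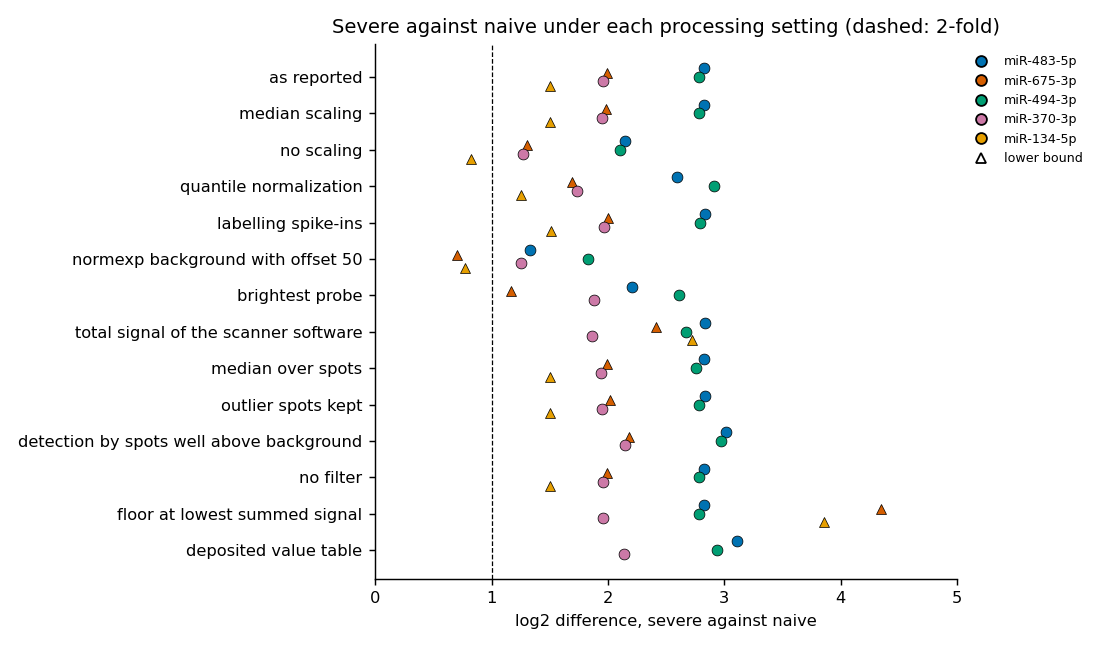
Log2 difference of severe against naive for each member under each processing setting, circles for miRNAs measured on both arrays and triangles for lower bounds; the dashed line marks 2-fold. miR-483-5p, miR-494-3p and miR-370-3p stay to the right of the line in every row, while the bounds of miR-675-3p and miR-134-5p cross it in some rows.

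Severe against moderate sets 2 arrays of the same day against each other. All 5 members were higher on the severe array, where 17.8% of the 169 miRNAs measured on at least 1 array were higher and 17.8% lower (22.6% higher among the 115 measured on both). Nothing is read from this count, or from the count against light below, since the members were picked with their severe values known. miR-483-5p was 5.42-fold higher, miR-494-3p 6.16-fold and miR-370-3p 3.88-fold, against a median log2 difference of −0.41 over those 115. miR-675-3p was at least 6.80-fold and miR-134-5p at least 4.86-fold higher. Here and against light, a bound sets a sum over probes against the floor of a single probe, so it is not strict. It can come out higher or uncalled but not lower. The 2 bounds were 2.96-fold and 2.115-fold with no scaling, and 2.22-fold and 2.16-fold with normexp. Without scaling the severe signals were 2.36, 2.68 and 1.69 times the moderate signals for the first 3, so miR-370-3p is under 2-fold there. Of all miRNAs, 10.1% were higher and 60.4% lower with no scaling (median −1.61), and 14.2% were higher and 43.2% lower with the spike-ins (median −1.08). In severe against light, 4 of the 5 members were higher, where 22.6% of the 133 miRNAs measured on at least 1 array were higher and 29.3% lower (21.2% higher among the 104 measured on both). The folds were 6.04 for miR-483-5p, 4.84 for miR-494-3p and 4.29 for miR-370-3p, with bounds of 2.19 for miR-675-3p and 1.57 for miR-134-5p. All comparisons of the severe array share that array, so they are not independent of each other.

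The members differed by unequal amounts. The ratio of miR-494-3p to miR-370-3p within an array, which dividing the array by 1 factor cannot alter, was 1.57 (light), 1.12 (moderate) and 1.78 (severe) times its naive value. The ratio of miR-483-5p to miR-370-3p was 1.30, 1.31 and 1.83 times its naive value. Settings that are not a single factor do alter these ratios: with quantile normalization the log2 differences of miR-494-3p and miR-370-3p were 0.27 and −0.08 in light and 2.91 and 1.73 in severe against naive. With normexp they were 0.49 and 0.19 in light and 1.83 and 1.26 in severe against naive. miR-494-3p thus lay above miR-370-3p in severe against naive under each of these settings, by amounts that varied with the processing. For miR-483-5p the log2 difference of severe against naive was 2.59 with quantile normalization and 1.33 with normexp. With the brightest probe alone it was 2.20. Those of miR-370-3p were 1.73, 1.26 and 1.88, so the gap nearly closed with normexp. The bound members cannot be placed in an order with the measured ones.

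The profiles most like each member were sought among the 103 other miRNAs measured on all 4 arrays, by the root mean square difference between log2 profiles centred on their means. For miR-483-5p the nearest were miR-494-3p at 0.18, miR-125a-3p at 0.27 and miR-370-3p at 0.31, where the median over all was 1.33. For miR-494-3p they were miR-483-5p at 0.18, miR-211-3p at 0.25 and miR-125a-3p at 0.27, with a median of 1.31. For miR-370-3p they were miR-125a-3p and miR-192-5p at 0.17 and miR-328a-5p at 0.18, with a median of 1.06, and miR-483-5p and miR-494-3p came at places 5 and 9. miR-125a-3p, which is near all 3, had signals of 108, 51.4, 128 and 299.99 units. The measure rests on 4 arrays and the members were chosen for their severe values, so this likeness is a description only.

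Base composition was set beside the severe difference. Among the miRNAs measured on the naive and severe arrays, 97 had a sequence in the table, with a median GC content of 45.5%. The 21 that passed 2-fold upwards on the severe array had a median of 54.5%, the 18 that passed it downwards 45.5% and the other 58 also 45.5%. The median share of U was 22.2%, 27.9% and 27.3% in those sets. The number of miRNAs without any U was 2, 0 and 1, and miR-483-5p is 1 of the 2. Of the 3 members measured on both arrays, miR-483-5p and miR-370-3p are at or above 54.5% GC, and miR-494-3p is below the overall median at 43.5%. The part of base composition in the results was not tested.

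The array held 110 arms from imprinted loci: 101 from Dlk1-Dio3, 4 from Gnas, 2 from Igf2, 2 from H19 and 1 from Mest. Of these, 10 were detected on any array and 100 on none, the highest sum among the 100 being 12.1 units for miR-1188-3p. The number detected was 5, 3, 7 and 7 of the 110, where 140, 122, 176 and 129 of all 719 miRNAs were detected. On each array a smaller share of these arms than of all miRNAs was thus detected, and the cause was not tested. The number of these arms measured was 3, 3, 7 and 7. In severe against naive, 7 arms had a value and all 7 were higher; 5 are the members, and 4 of the 7 values are lower bounds, of arms measured on the severe but not on the naive array. Over all miRNAs of that comparison 24.1% were higher, and since the members make up most of the 7, nothing is read from the count. In severe against moderate, 7 of 9 arms with a value were higher and 0 lower, where 17.8% of all were higher. The members are among these 7 too, so nothing is read from this count either. The values of miR-675-3p and miR-134-5p are lower bounds. miR-335 and miR-483-3p, measured on the moderate but not the severe array, have upper bounds of log2 0.69 and 1.40. Upper bounds of that size could not be called in either direction. In light and moderate against naive, 0 of 3 and 0 of 7 arms were higher, where 1.56% and 5.42% of all were, and 0 were lower. In moderate against naive, 4 of the 7 values are lower bounds, those of miR-770-3p, miR-483-3p, miR-335 and miR-296-5p. They ran from log2 −0.68 to 0.02. Such a bound cannot come out lower and does not show that an arm was unchanged.

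The 2 arms higher in severe against naive that are not members were miR-770-3p and miR-296-5p. Mir770 is listed next to Meg3, at the start of the Dlk1-Dio3 miRNAs. miR-770-3p gave 13.7, 3.45, 17.4 and 31.1 units. Its severe level was at least 3.19-fold above naive and 4.11-fold above moderate. miR-296-5p, from the imprinted Gnas locus, gave 3.19, 3.87, 14.6 and 32.1 units, and was at least 3.30-fold higher than naive and 5.06-fold higher than moderate. On the severe array 10 of 10 spots of 1 of its probes were well above background and 0 of 9 of the other. Both lie close to the floor, as miR-134-5p does. On the moderate array every probe of these arms lay under the floor of 13.1 units, and only the sums passed it. There 1 of 16 spots of miR-770-3p and 0 of 17 of miR-296-5p were well above background.

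The remaining detected arms did not follow the members. miR-300-5p was detected on the naive array alone, at 9.11 ± 2.43 units and under the floor, and its sum on the severe array was −15.8. miR-335, from the intron of Mest, another imprinted gene, was detected on the moderate array alone at 22.7 ± 1.30 units. Of the 101 Dlk1-Dio3 arms, 96 were not detected on any array, and miR-300-5p was the only arm detected from the 18 miRNA genes between Mir494 and Mir134. An arm without a detectable signal may lie under the floor, and absence cannot be read from it.

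**Figure D4:**
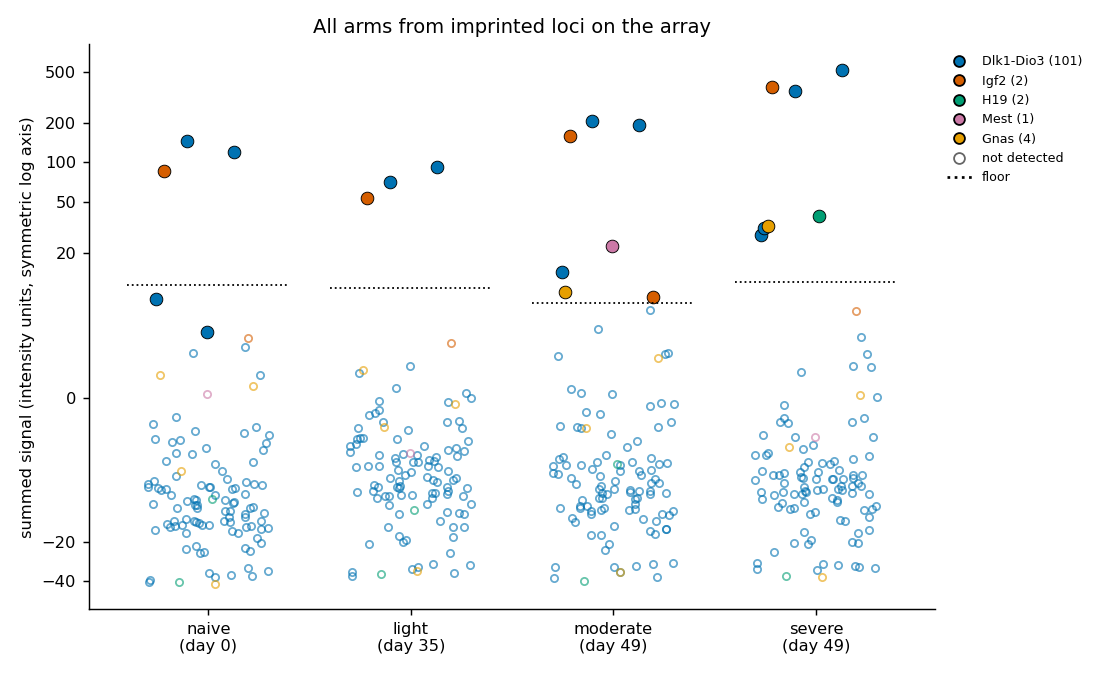
Summed background-subtracted signal, on a symmetric log axis in intensity units, of all 110 arms from imprinted loci on the 4 arrays; colours are loci, filled points are detected arms, open points are arms not detected, and dotted lines are the floor. The number of filled points is 5, 3, 7 and 7, and most arms lie around or below 0 on every array.

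Markers of the cells whose RNA serum can hold differed on the severe array as well. Of 14 such markers, 10, 9, 11 and 8 were detected, and their summed signal before scaling was 44491, 29880, 74638 and 19800 units. As a percentage of the 75th percentile the sums were 6680%, 8394%, 7825% and 4768%, so light lay above naive once scaled. The red-cell miRNA miR-451-5p, abundant in blood, was detected on all 4 arrays, at 27775, 19496, 43838 and 14052 units before scaling. The hepatocyte miRNA miR-122-5p was detected at 1123, 132, 964 and 417 units, also before scaling. Once scaled, miR-451-5p was 1.31-fold higher and miR-122-5p 4.53-fold lower on the light than on the naive array. The 3 red-cell markers did not move together: on the severe array miR-144-3p was 3.53-fold higher than naive, while miR-451-5p was 1.23-fold and miR-16-5p 1.63-fold lower. The myeloid miRNA miR-223-3p was 1.88-fold lower, the platelet and endothelial miRNA miR-126a-3p 1.98-fold lower and miR-122-5p 1.68-fold lower. The lymphocyte miRNA miR-150-5p was 8.62-fold lower, the muscle miRNA miR-133b-3p 17.6-fold lower and miR-1-3p at least 5.08-fold lower. The other muscle markers, miR-133a-3p and miR-206-3p, were not measured on either array. The islet marker miR-375-3p and the brain markers miR-124-3p and miR-9a-5p were not detected on any array. In RNA from serum, fewer vesicles from a cell type and less RNA per vesicle cannot be told apart, and the part of these markers in the members' values was not tested.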

How the data were processed

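The deposited intensity values per spot were made, per the file headers, with Agilent Feature Extraction 10.7.3.1 (protocol miRNA_107_Sep09) and were background-subtracted and spatially detrended but not scaled between arrays. Version 9.1 is the one in the submitters' processing notes. All 4 arrays lie on 1 slide with 1 scan time, per the file headers. The labelling protocol in the labels describes cRNA amplification, which is unusual for a miRNA array. The deposited files also give other values: a detection call per miRNA and flags per spot.

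Outlier spots were left out (386 to 525 of 14380 per array; 0 were saturated). Spots were averaged per probe, summed over the probes of a miRNA, divided by the 75th percentile over miRNAs detected on all arrays, and log2 was taken. Tables were computed with python 3.11.15, numpy 2.4.6 and pandas 2.3.3, and normexp with limma 3.58.1; the computation was tested on simulated data. No test across arrays was possible with 1 array per group.

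The members, the imprinted-locus list and the markers were chosen with earlier results of these data known. The text names the members and the other arms of their precursors, every other imprinted arm detected on any array, the markers, and the 3 most alike miRNAs per member. The deposited value table holds unscaled totals of the scanner software for 102 miRNAs, within 0.0424% of the scanner files, and 3 of the members; it served as an alternative. Sequences (641 of 719 array names matched) and gene order come from RefSeq tables of GRCr8; the array grid is on rn4, so no coordinates are given.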

Additional observations from a re-analysis of the deposited data

How the results depend on the processing

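Of 14 other settings 13 were run; the percentile over all miRNAs could not be fitted, because it was −0.739 on the light array and 0.336 to 8.26 on the others. Of 104 counts of members 98 stayed within 1.5 times and 6 moved, and of 200 differences of single members 66 stayed within the spot noise (for a bound, stayed equal), the others moved further, and 0 reversed a called direction. A member measured on the severe array alone could not reverse. With no scaling, and with the labelling spike-ins, 1 member (miR-370-3p) was lower in light against naive, and with the spike-ins 1 member (miR-483-5p) was higher in moderate against naive. With normexp at an offset of 50, 3 members were higher in severe against naive. With the deposited value table, which holds 3 members, 3 were higher in severe against naive, where 23.5% of its miRNAs were higher and 21.6% lower, and 3 in severe against moderate, where 23.5% were higher and 15.7% lower. Those counts are thus all the members it holds. The cause of the other shifts was not tested. Over all miRNAs, severe against naive gave 33 higher and 25 lower; this became 23 and 53 with no scaling (median log2 −0.79), 31 and 41 with the totals of the scanner software, and 15 and 5 with normexp. No paired analysis was possible because each group has 1 array, and leaving out an array leaves its group empty. Signal over background limits miR-675-3p and miR-134-5p most: on the severe array their sums of 38.7 and 27.6 units stand against a floor of 16.0.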

Other observations

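In the totals of the scanner software as deposited, unscaled, miR-483-5p had 27.0 (naive), 14.5 (light), 54.8 (moderate) and 132 units (severe). In the same order, miR-494-3p had 83.3, 61.8, 129 and 361 units, and miR-370-3p 99.6, 47.1, 144 and 247 units. miR-675-3p and miR-134-5p are not in the deposited value table; in the scanner files their totals on the severe array were 15.5 and 19.3 units.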
